A study of Homo sapiens with 9 samples.

Results

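The surface genes through which tumour cells hold back immune cells were followed after ZIP7 was silenced in MDA-MB-231, a line of mesenchymal-like triple-negative breast carcinoma. The set holds 9 of the 58395 genes in the count tables. It was made by hand from CD274, PDCD1LG2 and CD276 of the B7 family, CD47, the ectoenzyme gene NT5E, the poliovirus receptor PVR, its relative NECTIN2 and the PVR receptor CD96, and the galectin gene LGALS9. CD96 was chosen by its measured values, a fall in its reads with both siRNAs, so its difference from the control is given below as a description, with no test. The other 8 genes were listed for their function, with earlier results from these data already known.

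RNA was taken 96 h after reverse transfection with a non-targeting siRNA (siNC) or with either of a pair of siRNAs against SLC39A7, the gene of the endoplasmic reticulum zinc transporter ZIP7 (siZIP7_1 and siZIP7_2, from different suppliers). Each siRNA had 3 libraries, 9 in all, and the labels name no other treatment. All libraries come from this single cell line, in culture. The study describes the transfections as done in triplicate and does not say whether on separate days or from separate cultures, so the p-values measure the spread between these libraries, part of which may be technical. Reads assigned to genes numbered from 24153785 to 30454419 in a library. Levels are given as CPM, which puts the reads of each library on one common depth after TMM normalization. Detection was taken to need more than 3 reads, which were worth 0.0985 to 0.124 CPM before TMM and cover counting error only.

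Immune checkpoints are pairs of a ligand on one cell and an inhibitory receptor on another. PD-L1 (CD274) and PD-L2 (PDCD1LG2) on a tumour cell engage PD-1 on T cells, and interferon gamma raises both through JAK and STAT signalling and the factor IRF1. CD47 engages SIRP alpha on macrophages and blocks phagocytosis, while CD73 (NT5E) makes adenosine outside the cell, which dampens T cells and NK cells. PVR and NECTIN2 are ligands of activating CD226 and of inhibitory TIGIT, and PVR also binds CD96, so their effect on a lymphocyte depends on which receptor it carries.

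Promoter windows from RefSeq (GRCh38.p14), which reach from 250 bases before a gene's start to 50 bases after it, were found for 8 of the 9 genes, all but PDCD1LG2. CD276 has 2. The start here is that of a RefSeq transcript, and it lies 39 to 1390 bases inside the GENCODE gene span used below for positions, except for CD96, where it lies 249478 bases inside. The windows of CD274, LGALS9 and CD96 are shown because they alone among the windows of these genes hold a match to either motif searched for the interferon route. The motifs were the interferon regulatory factor element (GAAA and GAAA with any 2 bases between them) and the STAT motif TTCNNNGAA (GAS), each read on both strands. Capitals mark the matches, and every sequence runs 5′ to 3′ on the plus strand. CD274 lies at chr9:5450292-5450591, LGALS9 at chr17:27630938-27631237 and CD96 at chr3:111541947-111542246.
CD274: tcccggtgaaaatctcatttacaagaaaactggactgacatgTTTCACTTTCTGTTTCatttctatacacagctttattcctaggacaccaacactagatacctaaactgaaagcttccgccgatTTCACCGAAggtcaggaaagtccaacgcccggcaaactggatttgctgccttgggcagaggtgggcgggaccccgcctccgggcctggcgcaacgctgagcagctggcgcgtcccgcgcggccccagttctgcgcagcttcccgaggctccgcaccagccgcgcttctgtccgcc
LGALS9: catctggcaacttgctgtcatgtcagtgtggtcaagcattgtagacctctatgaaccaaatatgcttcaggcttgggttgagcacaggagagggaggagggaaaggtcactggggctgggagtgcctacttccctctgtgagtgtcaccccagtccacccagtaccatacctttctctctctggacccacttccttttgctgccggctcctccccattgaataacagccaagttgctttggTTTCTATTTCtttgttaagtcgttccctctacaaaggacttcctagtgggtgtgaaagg
CD96: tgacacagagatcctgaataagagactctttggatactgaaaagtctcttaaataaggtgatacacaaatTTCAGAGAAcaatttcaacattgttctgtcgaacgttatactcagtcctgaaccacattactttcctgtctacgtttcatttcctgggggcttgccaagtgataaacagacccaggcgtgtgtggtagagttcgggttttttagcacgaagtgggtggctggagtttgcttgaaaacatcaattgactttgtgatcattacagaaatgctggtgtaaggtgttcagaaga

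In CD274 a pair of overlapping matches to the interferon element begins 208 and 202 bases before the start, and a GAS match begins 125 bases before it. LGALS9 has 1 interferon match, which begins 9 bases before the start, and CD96 has 1 GAS match, 180 bases before that internal RefSeq start. Of all 35116 RefSeq promoter windows, 3.57% hold the interferon element and 7.66% the GAS motif, so such matches are not rare. The CD96 window is AT-rich, with a GC content of 41.0% and 6 CpG dinucleotides, whereas the CD274 window has 57.3% and 22. The windows of CD276, CD47, NT5E, PVR and NECTIN2 have GC contents of 67.3% to 80.3%, and that of LGALS9 has 50.7% with 2 CpG dinucleotides. NECTIN2 also holds 1 match to the cAMP response element TGACGTCA, found in 1.85% of windows. A match is a run of letters and does not show that a factor binds there.

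SLC39A7 itself was low in every library labelled as silenced. It stood at 321, 343 and 322 CPM with siNC, at 35.4, 32.9 and 38.6 CPM with siZIP7_1, and at 20.5, 19.5 and 17.6 CPM with siZIP7_2. The groups did not overlap. Its log2 fold change was -3.20 (SE 0.058) and -4.10 (SE 0.063), and the siRNAs differed from each other by -0.89 (siZIP7_2 against siZIP7_1, SE 0.066, edgeR adjusted p = 4.89e-13). As a check of the cell label, VIM, the intermediate filament gene of mesenchymal cells, was at 5529, 2687 and 2896 CPM in the siNC, siZIP7_1 and siZIP7_2 groups, so it was abundant in all 3. With siNC the hormone receptor genes ESR1 and PGR were at 0.0887 and 0 CPM, while other luminal or epithelial genes were present, with GATA3 at 15.8, EPCAM at 6.57 and FOXA1 at 2.98 CPM. The share of reads on mitochondrial genes was 2.26% to 2.65% with siNC, 2.66% to 2.81% with siZIP7_1 and 3.27% to 3.88% with siZIP7_2. The share that fell outside any gene was also highest with siZIP7_2, at 9.995% to 11.5%. The part of either in the results below was not tested.

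With siZIP7_1, PVR and NECTIN2 rose, CD274, PDCD1LG2 and LGALS9 fell, and CD276, CD47 and NT5E did not pass the test. With siZIP7_2, PDCD1LG2, CD276, NT5E and PVR rose, CD274 and CD47 fell, and NECTIN2 and LGALS9 did not pass. Without CD96, 5 of 8 genes passed with siZIP7_1, beside 70.7% of the 16761 genes tested, and 6 of 8 with siZIP7_2, beside 77.8%. The shares by direction were 34.8% higher and 35.9% lower among all genes with siZIP7_1, where the set had 2 higher and 3 lower, and 38.5% and 39.3% with siZIP7_2, where it had 4 and 2. Most of the transcriptome passed the test in these libraries, and the set's counts lie near that background. The median log2 fold change of the 8 genes was 0.0046 with siZIP7_1 and 0.12 with siZIP7_2, against -0.0069 and -0.0018 over all genes. All 9 genes passed the low-count filter.

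A second rule asked for a change beyond 1.8-fold (edgeR's glmTreat). With siZIP7_1 it was met by 1 of the 8 genes, PDCD1LG2, which was lower, beside 16.9% of all genes in either direction, 8.32% lower and 8.6% higher. With siZIP7_2 it was met by 2, PDCD1LG2 and CD276, both higher, beside 24.7% in either direction and 14% higher. Both siZIP7 comparisons share the siNC libraries, so they are not independent. Between the siZIP7 groups, 8 of the 9 genes passed the first rule, beside 78.7% of all genes, with 6 higher and 2 lower in siZIP7_2 (38.1% and 40.6% of all genes). The 1.8-fold rule was met there by 2, PDCD1LG2 and CD276, beside 28.2%. The ranges of the libraries did not overlap siNC for 5 of 8 genes with siZIP7_1 (72.1% of all genes) and 6 of 8 with siZIP7_2 (78.7%), and between the siZIP7 groups they did not overlap for any of the 9 (79.7%).

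**Figure D1:**
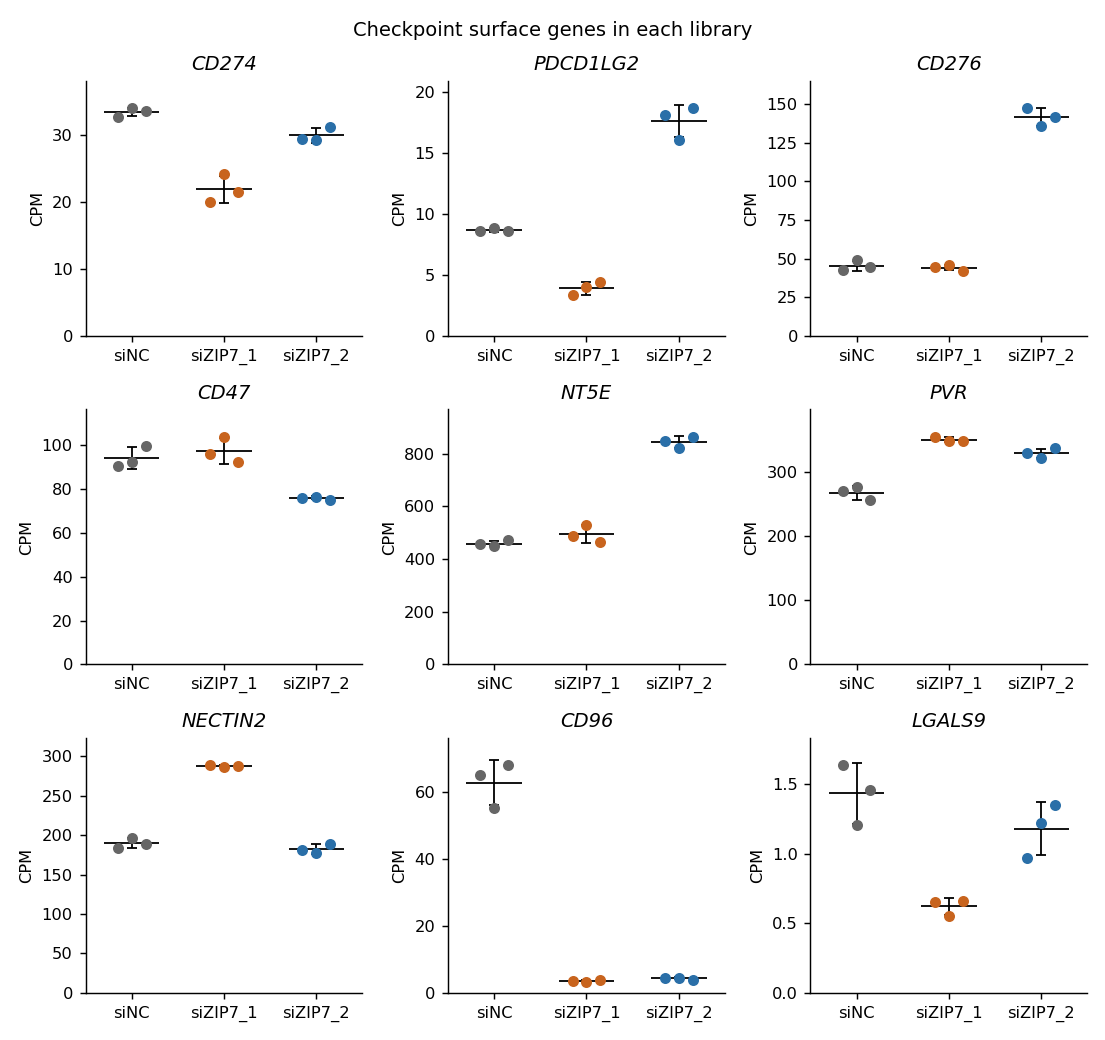
CPM of each of the 9 genes in every library, with the horizontal line at the mean of 3 libraries and the bar at ± 1 SD, on axes that start at 0. PDCD1LG2 lies lower than siNC with siZIP7_1 and higher with siZIP7_2, CD276 and NT5E stand apart with siZIP7_2, NECTIN2 stands apart with siZIP7_1, and CD96 is low in all 6 siZIP7 libraries.

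The PD-1 ligands were taken first. CD274 (ENSG00000120217) lies on chromosome 9 from 5450503 to 5470566 on the plus strand of GRCh38, and PDCD1LG2 (ENSG00000197646) begins 40004 bases beyond its end, from 5510570 to 5571254 on the same strand. CD274 was at 32.7, 33.9 and 33.6 CPM with siNC, at 20.0, 24.1 and 21.5 CPM with siZIP7_1, and at 29.4, 29.2 and 31.2 CPM with siZIP7_2. It was lowest with siZIP7_1, and neither siZIP7 group overlapped siNC. CD274 changed by -0.61 on the log2 scale with siZIP7_1 (SE 0.066, 0.656 of the siNC level, edgeR adjusted p = 2.55e-09). With siZIP7_2 it was -0.16 (SE 0.065, edgeR adjusted p = 0.0279), a call that was lost under 4 of the 7 alternative settings and in 4 of the 9 fits that left out a library. These were the fits without siNC replicate 2 (adjusted p = 0.0744), siNC replicate 3 (0.0735), siZIP7_2 replicate 1 (0.0927) and siZIP7_2 replicate 2 (0.11). Over all of those fits the adjusted p ran from 0.00523 to 0.457.

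PDCD1LG2 went in opposite directions with the siRNAs. Its level was 8.64, 8.89 and 8.61 CPM with siNC, 3.35, 3.98 and 4.39 CPM with siZIP7_1, and 18.1, 16.1 and 18.7 CPM with siZIP7_2. No library of one group reached the range of another. Against siNC its log2 fold change was -1.15 for siZIP7_1 (SE 0.1096, edgeR adjusted p = 1.80e-10) and 1.015 with siZIP7_2 (SE 0.090, edgeR adjusted p = 2.63e-11). Between the siZIP7 groups it was 2.16 (siZIP7_2 against siZIP7_1, SE 0.0997, 4.48-fold, edgeR adjusted p = 7.17e-18). Its calls beyond 1.8-fold against siNC were near the limit, with glmTreat adjusted p-values of 0.00856 and 0.0407. Leaving out siZIP7_1 replicate 1 took the first to 0.0841, and the second was lost without any of the siNC libraries or siZIP7_2 replicates 1 and 3 (adjusted p = 0.0529 to 0.123).

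The balance of the ligands on a per-length scale therefore differed by siRNA. CD274 had 2.21 ± 0.034 times the CPM per kb of exonic length of PDCD1LG2 with siNC (SD, n = 3), 3.25 ± 0.370 times with siZIP7_1 and 0.979 ± 0.0565 times with siZIP7_2. The 3 groups did not overlap: the lowest siZIP7_1 ratio was 2.82, the siNC ratios lay between 2.18 and 2.24, and the highest siZIP7_2 ratio was 1.04. This ratio does not depend on the scaling between libraries.

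Other genes within 250 kb of CD274 had their own patterns. PLGRKT, a plasminogen receptor gene on the other side of CD274, was at 10.6, 4.81 and 5.19 CPM in the siNC, siZIP7_1 and siZIP7_2 groups, with log2 fold changes of -1.14 and -1.03 (edgeR adjusted p = 3.91e-10 and 2.32e-09). RIC1, whose product acts in a complex that activates the Golgi GTPase RAB6, was at 23.5, 63.6 and 27.7 CPM, with 1.43 and 0.23 (edgeR adjusted p = 9.58e-19 and 0.00175). INSL4, an insulin-like hormone gene of the placenta, was under 1 CPM, and its log2 fold change passed with siZIP7_1 only (-1.26, edgeR adjusted p = 0.0102, against -0.55 and 0.197). The call with siZIP7_1 alone was not tested as a difference.

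CD276 encodes B7-H3, a B7 relative that is abundant on many carcinomas. It lies on chromosome 15 from 73683966 to 73714518, plus strand (ENSG00000103855). Its level was 42.9, 48.9 and 44.4 CPM with siNC, 44.4, 45.8 and 42.2 CPM with siZIP7_1, and 147, 136 and 142 CPM with siZIP7_2. The siNC and siZIP7_1 libraries overlapped, and all siZIP7_2 libraries lay far above both. The log2 fold change was 1.64 with siZIP7_2 (SE 0.055, 3.12-fold, edgeR adjusted p = 5.16e-21), and it passed the 1.8-fold rule with an adjusted p of 2.27e-14. With siZIP7_1 it was -0.04 (SE 0.057, edgeR adjusted p = 0.552). The direct comparison of the siZIP7 groups gave 1.68 (SE 0.054, 3.21-fold, edgeR adjusted p = 1.36e-21).

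CD47 carries the signal that macrophages read before phagocytosis. The gene (ENSG00000196776) lies on chromosome 3 from 108043094 to 108091862 on the minus strand. It was at 90.4, 92.4 and 99.7 CPM with siNC, 95.9, 104 and 92.5 CPM with siZIP7_1, and 76.2, 76.5 and 75.2 CPM with siZIP7_2. All siZIP7_2 libraries lay below the siNC range, while the siZIP7_1 libraries overlapped it. The log2 fold change was -0.31 with siZIP7_2 (SE 0.052, 0.806 of siNC, edgeR adjusted p = 4.30e-06) and 0.05 with siZIP7_1 (SE 0.051, edgeR adjusted p = 0.408). Between the siZIP7 groups it was -0.36 (SE 0.052, edgeR adjusted p = 3.57e-07).

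NT5E, the gene of the AMP-hydrolysing enzyme CD73, was the most abundant of the 9 genes per length in all 3 groups. It lies on chromosome 6 from 85449584 to 85495791, plus strand (ENSG00000135318). Its level was 455, 449 and 471 CPM with siNC, 486, 530.3 and 463 CPM with siZIP7_1, and 846, 821 and 863 CPM with siZIP7_2. The siZIP7_1 libraries overlapped siNC, and the siZIP7_2 libraries were above every other library. With siZIP7_2 the log2 fold change was 0.88 (SE 0.050, 1.84-fold, edgeR adjusted p = 1.36e-15), which did not pass the rule of a change beyond 1.8-fold (adjusted p = 0.342) but did pass it with upper-quartile normalization (0.00283) and with at least 10 counts a library (0.0250). With siZIP7_1 it was 0.10 (SE 0.050, edgeR adjusted p = 0.0632). That value crossed the threshold under 3 of the 7 alternative settings and without siNC replicate 3 (adjusted p = 0.0421) or siZIP7_1 replicate 3 (0.0174), with adjusted p-values over all fits from 0.0135 to 0.402. The siZIP7 groups differed by 0.77 (SE 0.050, 1.71-fold, edgeR adjusted p = 1.90e-14).

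PVR and NECTIN2, both on chromosome 19, are cell adhesion molecules that lymphocytes read through CD226 and TIGIT and, for PVR, CD96. PVR (ENSG00000073008, 44643798 to 44663583) was at 270.3, 277 and 256 CPM with siNC, 355, 348 and 349 CPM with siZIP7_1, and 329, 322 and 337 CPM with siZIP7_2. Every siZIP7 library was above every siNC library. On the log2 scale PVR rose by 0.39 with siZIP7_1 (SE 0.045, 1.31-fold, edgeR adjusted p = 1.03e-08) and 0.30 with siZIP7_2 (SE 0.045, 1.23-fold, edgeR adjusted p = 9.46e-07). The difference between the siRNAs was -0.09 (SE 0.045, edgeR adjusted p = 0.0691). That difference did not pass, although the ranges of the siZIP7 groups did not overlap, and it did pass without siNC replicate 2 (adjusted p = 0.0488).

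NECTIN2 (ENSG00000130202, 44846175 to 44889228) was at 184, 197 and 189 CPM with siNC, 289, 287 and 288 CPM with siZIP7_1, and 181, 177 and 189 CPM with siZIP7_2. It stood apart with siZIP7_1 only. On the log2 scale the change was 0.60 with siZIP7_1 (SE 0.045, 1.51-fold, edgeR adjusted p = 1.10e-12) and -0.06 with siZIP7_2 (SE 0.046, edgeR adjusted p = 0.236), and the siZIP7 groups differed by -0.66 (SE 0.045, edgeR adjusted p = 8.87e-14). Per kb of exonic length, PVR was 1.56, 1.499 and 1.44 times NECTIN2 in the siNC libraries, 1.30 ± 0.0118 times with siZIP7_1 (SD, n = 3) and 1.92 ± 0.0234 times with siZIP7_2, with no overlap between groups. Of their exonic lengths, 3.44% and 3.42% overlap other genes, where reads cannot be assigned with certainty.

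CD96 encodes a receptor of T cells and NK cells that binds PVR, and is here expressed by a carcinoma line. It lies on chromosome 3 from 111292719 to 111665750, plus strand (ENSG00000153283). With siNC it was at 65.0, 55.1 and 67.9 CPM. With siZIP7_1 it was at 3.61, 3.37 and 3.73 CPM, and with siZIP7_2 at 4.58, 4.51 and 3.96 CPM. These values, which put the gene in the set, are log2 fold changes of -4.13 and -3.85, or 0.0570 and 0.0694 of the siNC level. The low level with each siRNA was still above the detection floor. What the choice did not use is the difference between the siZIP7 groups, which was 0.29 (siZIP7_2 against siZIP7_1, SE 0.128, edgeR adjusted p = 0.0427). That call was lost without any 1 of the siZIP7_1 libraries (adjusted p = 0.0736, 0.122 and 0.0508 without replicates 1, 2 and 3) or siZIP7_2 replicates 1 and 2 (0.109 and 0.117). It was also lost without the low-count filter, and over all fits the adjusted p ran from 0.0129 to 0.122.

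CD96 is a lymphocyte gene by its usual expression, so lymphocyte markers were read in the same libraries. Of 10 T and NK cell markers, CD3G and CD2 had no count in any library, 5 never exceeded 3 counts (the 2 at zero among them), and CD3E had at most 1 count in a library. CD8A, with the highest mean CPM over all libraries, was at 1.75, 1.35 and 0.251 CPM in the siNC, siZIP7_1 and siZIP7_2 groups, and PTPRC, the pan-leukocyte gene CD45, was at 0.402, 0.875 and 0.327 CPM. CD3D went the other way from CD8A, with 1, 0 and 0 reads with siNC, 0, 0 and 1 with siZIP7_1, and 18, 6 and 18 with siZIP7_2 (0.529 CPM). The summed level of the 10 was 2.14, 2.41 and 2.35 CPM in the siNC libraries. It was 2.73, 1.99 and 2.26 CPM with siZIP7_1 and 1.20, 1.28 and 1.85 CPM with siZIP7_2. Of 4 B cell markers, MS4A1 was at 0, CD79A had the highest mean CPM over all libraries, though not with siZIP7_2, and the sum was 0.0726 to 0.269 CPM in a library. In a bulk sample, fewer cells that express a gene and less RNA of it per cell cannot be told apart.

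The neighbours of CD96 within 250 kb moved in several directions. PHLDB2, which encodes a protein that ties microtubules to the cell cortex, was at 106, 59.5 and 65.5 CPM in the siNC, siZIP7_1 and siZIP7_2 groups (log2 fold changes -0.84 and -0.70, edgeR adjusted p = 4.00e-15 and 1.99e-13). PLCXD2, a gene of the phospholipase C X-domain family, was at 11.1, 26.4 and 45.1 CPM (1.25 and 2.02, edgeR adjusted p = 3.12e-14 and 1.46e-19). NECTIN3, an adhesion partner of the nectins, was at 62.1, 62.0 and 18.6 CPM (0.00 and -1.74, edgeR adjusted p = 0.971 and 6.05e-19). NECTIN3-AS1 was under 1 CPM in each group and its log2 fold changes were 0.28 and -0.90 (edgeR adjusted p = 0.418 and 0.0249).

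LGALS9, the gene of galectin-9, a lectin that binds glycans on TIM-3, was near the lower end of what these libraries measure. It lies on chromosome 17 from 27629798 to 27649560, plus strand (ENSG00000168961). It had 45, 28 and 41 reads with siNC, 18, 16 and 21 reads with siZIP7_1, and 25, 37 and 35 reads with siZIP7_2. In CPM the means were 1.43 ± 0.217, 0.621 ± 0.0621 and 1.18 ± 0.191 (SD, n = 3 each). The siZIP7_1 libraries lay below all others, and the siZIP7_2 libraries overlapped siNC. For siZIP7_1 the log2 fold change was -1.21 (SE 0.242, edgeR adjusted p = 6.49e-05) and -0.29 with siZIP7_2 (SE 0.217, edgeR adjusted p = 0.227). The siZIP7 groups differed by 0.92 (SE 0.250, edgeR adjusted p = 0.00152). With siZIP7_1 the 1.8-fold rule was not met (adjusted p = 0.121).

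Reads of LGALS9 are uncertain because the near-identical copies LGALS9B and LGALS9C can share them. LGALS9B had 0, 1 and 3 reads with siNC, 0, 0 and 1 with siZIP7_1, and 12, 8 and 6 with siZIP7_2. LGALS9C had 1, 1 and 0 reads, then 9, 10 and 6, and then 3, 1 and 6 reads in the same order of groups. Another 5.15% of the exonic length of LGALS9 overlaps a different gene.

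**Figure D2:**
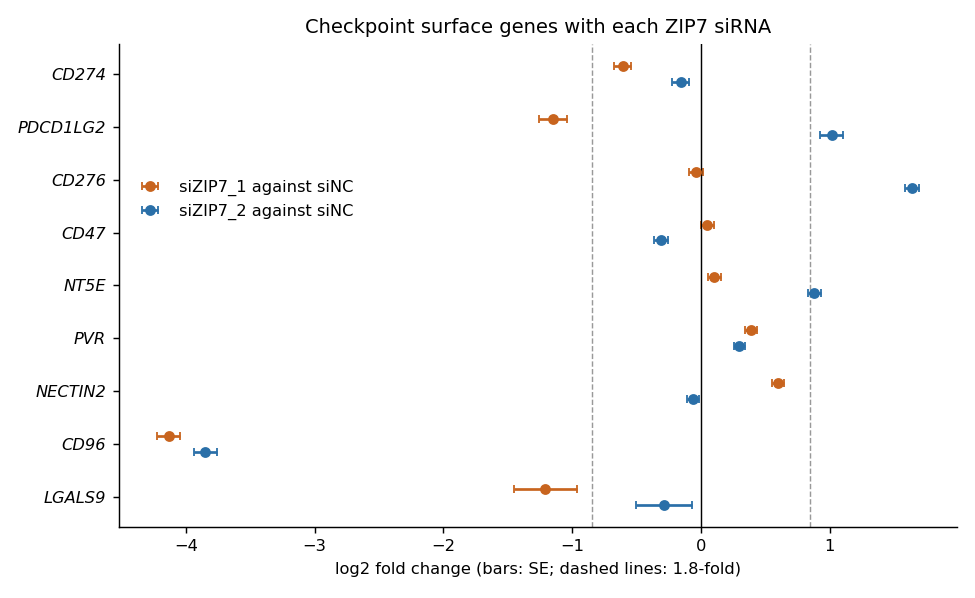
Log2 fold change of each gene with siZIP7_1 (orange) and siZIP7_2 (blue) against siNC, with bars of 1 SE and dashed lines at a change of 1.8-fold in either direction. PDCD1LG2 lies at -1.15 with siZIP7_1 and 1.015 with siZIP7_2, CD276 and NT5E lie to the right with siZIP7_2 only, and both CD96 values, which chose that gene, lie near -4.

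Read per kb of exonic length, NT5E, PVR and NECTIN2 led and LGALS9 was last in all 3 groups, and the genes between them changed places. NT5E was highest at 101 CPM per kb with siNC, then PVR at 76.1, NECTIN2 at 50.7, CD47 at 11.4, CD96 at 10.9, CD276 at 8.19, CD274 at 8.13, PDCD1LG2 at 3.69 and LGALS9 at 0.251 CPM per kb. The libraries of CD47 and CD96 overlapped in that order, as did those of CD276 and CD274. With siZIP7_1 CD96 fell to 0.619 CPM per kb, below PDCD1LG2 at 1.65, and no neighbours in the order overlapped. With siZIP7_2 CD276, at 25.5 CPM per kb, passed CD47, at 9.23, and PDCD1LG2, at 7.46, stood beside CD274, at 7.29, with overlapping libraries. CD96 was again next to last there, at 0.755 CPM per kb.

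**Figure D3:**
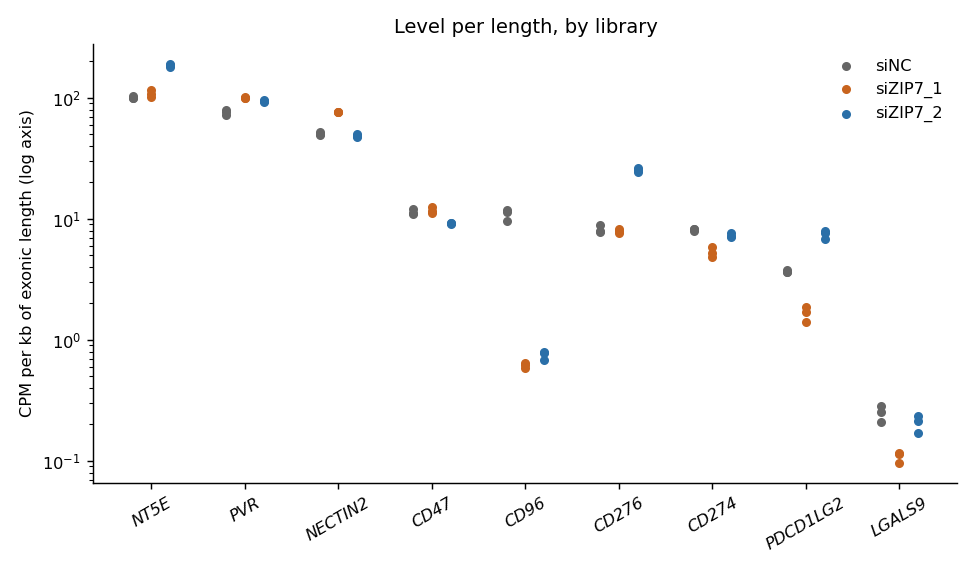
Level of each gene in CPM per kb of exonic length, on a log axis, with 1 point for each of the 3 libraries of a group (siNC grey, siZIP7_1 orange, siZIP7_2 blue). Genes run from NT5E at about 101 with siNC to LGALS9 at 0.251, and the siZIP7_2 points of CD276 rise above those of CD47.

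The likeness of patterns was described by Pearson's r of log2 CPM over the 9 libraries, among the 10998 genes averaging 5 CPM or more. The libraries form 3 groups, so any gene that separates them in the same way scores high, and the values carry no test. For CD274 the closest genes were MRGBP (0.9885), DCAF1 (0.9869) and CSTF3 (0.9869), with 337 genes above 0.95. CD47 was closest to SH3BGRL (0.9955), PI4K2B (0.9881) and MIPOL1 (0.9869), with 269 above 0.95. For NT5E they were MT-RNR1 (0.9981), the mitochondrial 12S ribosomal RNA, ATMIN (0.9977) and ANXA1 (0.9974), with 554. CD96 was closest to PDE7B (0.9975), GJA1 (0.9967) and ORC3 (0.9957), with 517.

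The rest of the checkpoint network was read in 11 lists of 111 genes, chosen with earlier results known, of which 81 had enough reads to test. Of these, 8 would not have reached the low-count filter without siZIP7_2, the group where they were high, so a difference there was built into being tested. They were left out of the counts and medians below, which cover the other 73. With siZIP7_1, 23 were higher, 34 lower and 16 did not pass, beside 34.8% higher and 35.9% lower among all genes. With siZIP7_2, 38 were higher, 26 lower and 9 did not pass, beside 38.5% and 39.3%. The same shares of all genes are the background for each list. The median log2 fold change of the 73 was -0.12 and 0.15, against -0.0069 and -0.0018 for all genes. Some genes stand in more than 1 list, and nothing is read from a list beyond these counts.

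Among 7 tested B7 and butyrophilin relatives, 3 rose and 4 fell with siZIP7_1, and 4 rose and 3 fell with siZIP7_2. VSIR, which encodes the inhibitory ligand VISTA, was at 14.7, 88.0 and 42.4 CPM in the siNC, siZIP7_1 and siZIP7_2 groups, with log2 fold changes of 2.58 and 1.53 (edgeR adjusted p = 5.39e-24 and 2.56e-18). BTN3A2, a butyrophilin of the group that gamma delta T cells read, was at 40.0, 16.2 and 16.3 CPM (-1.31 and -1.29, edgeR adjusted p = 5.26e-17 and 7.22e-17). NCR3LG1, the gene of the NK cell ligand B7-H6, was at 2.54, 1.67 and 5.46 CPM (-0.60 and 1.10, edgeR adjusted p = 0.00244 and 3.80e-08). The last thus went in opposite directions, as PDCD1LG2 did.

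Of the 12 genes that handle the PD-L1 protein, 4 rose and 8 fell with siZIP7_1, and 4 rose, 7 fell and 1 did not pass with siZIP7_2. B3GNT3, a glycosyltransferase reported to act on PD-L1, was at 4.73, 32.4 and 8.23 CPM, with log2 fold changes of 2.77 and 0.79 (edgeR adjusted p = 4.46e-20 and 9.49e-07). HIP1R, which sends PD-L1 to the lysosome, was at 69.5, 83.3 and 140 CPM (0.26 and 1.01, edgeR adjusted p = 2.44e-05 and 2.08e-17).

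Of 13 genes of PD-L1 transcription and interferon gamma signalling, 4 rose, 5 fell and 4 did not pass with siZIP7_1, while 9 rose, 2 fell and 2 did not pass with siZIP7_2. JUN, a subunit of AP-1, was at 361, 137 and 392 CPM (-1.40 and 0.12, edgeR adjusted p = 6.58e-21 and 0.0190). IFNGR2, a chain of the interferon gamma receptor, was at 46.6, 21.5 and 59.4 CPM (-1.12 and 0.35, edgeR adjusted p = 2.69e-15 and 6.04e-06). JAK1, the kinase that signals from that receptor, was at 150.4, 109 and 287 CPM (-0.46 and 0.93, edgeR adjusted p = 9.33e-10 and 8.61e-17). All 3 fell with siZIP7_1 and rose with siZIP7_2. IRF1, chosen after its values were seen as the factor named for the CD274 promoter, was at 69.4, 31.0 and 64.4 CPM (-1.16 and -0.11, edgeR adjusted p = 5.71e-18 and 0.0488).

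In the nectin and PVR axis, 1 of 4 partners rose, 2 fell and 1 did not pass with siZIP7_1, and 2 rose, 1 fell and 1 did not pass with siZIP7_2. NECTIN4, CRTAM and CD226, which passed the filter through siZIP7_2 alone, are not in these counts. CADM4, an adhesion molecule of the nectin-like family, was at 4.78, 53.6 and 12.4 CPM in the siNC, siZIP7_1 and siZIP7_2 groups (log2 fold changes 3.50 and 1.38, edgeR adjusted p = 1.48e-24 and 9.79e-14). NECTIN1, a nectin that pairs with NECTIN3, was at 55.2, 16.7 and 66.4 CPM (-1.72 and 0.27, edgeR adjusted p = 5.96e-20 and 1.00e-04). The values of NECTIN3 stand above with the neighbours of CD96.

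Among 7 genes of adenosine production and its receptors, without ADORA1 and ADORA2A for the same reason, 2 rose, 4 fell and 1 did not pass with siZIP7_1, and 3 rose and 4 fell with siZIP7_2. ENPP1, an ectoenzyme that makes AMP for CD73, was at 211, 58.5 and 37.2 CPM (-1.85 and -2.50, edgeR adjusted p = 3.34e-23 and 1.28e-25). DPP4, which anchors adenosine deaminase to the surface, was at 0.682, 7.32 and 5.15 CPM (3.41 and 2.90, edgeR adjusted p = 2.10e-16 and 3.47e-14). ADORA2B, an adenosine receptor, was at 132, 65.6 and 84.5 CPM (-1.01 and -0.64, edgeR adjusted p = 3.61e-16 and 6.25e-12). The AMP-making ENPP1 was thus lowest in the siZIP7_2 libraries, where NT5E was highest.

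Around CD47, 2 of 6 tested genes rose, 3 fell and 1 did not pass with siZIP7_1, and 3 rose, 2 fell and 1 did not pass with siZIP7_2. THBS1, the gene of the CD47 ligand thrombospondin-1, was at 4680, 1313 and 1648 CPM (-1.83 and -1.51, edgeR adjusted p = 3.59e-23 and 2.91e-21). LRP1, the receptor for the phagocytic signal calreticulin, was at 69.8, 169 and 156 CPM (1.28 and 1.1595, edgeR adjusted p = 9.79e-17 and 8.24e-16). QPCT, a glutaminyl cyclase related to the enzyme that modifies CD47, was at 11.9, 5.33 and 21.6 CPM (-1.16 and 0.86, edgeR adjusted p = 1.58e-12 and 1.80e-11).

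Of 5 tested galectins and partners, 2 rose, 2 fell and 1 did not pass with each siRNA. CEACAM1, a TIM-3 partner, was at 1.74, 3.20 and 3.18 CPM (0.86 and 0.85), LGALS1 at 595, 372 and 372 CPM (-0.68 and -0.68), and LGALS8 at 175, 249.9 and 238 CPM (0.51 and 0.44). All of these calls passed, and 30.6% of the exonic length of LGALS8 overlaps other genes. Among 8 tested ligands of NK cell receptors, 1 rose, 5 fell and 2 did not pass with siZIP7_1, and 6 rose, 1 fell and 1 did not pass with siZIP7_2, beside 34.8% and 35.9% and then 38.5% and 39.3% of all genes higher and lower. ULBP3 and ULBP2, ligands of NKG2D, were at 3.07, 1.71 and 4.79 CPM (-0.84 and 0.64) and at 10.5, 7.33 and 18.7 CPM (-0.53 and 0.82), with edgeR adjusted p-values of 2.85e-05 and 8.84e-05 for the former and 2.45e-05 and 1.58e-09 for the latter.

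In the TNF family without TNFSF14, 3 of 7 genes rose and 4 did not pass with siZIP7_1, and 3 rose, 2 fell and 2 did not pass with siZIP7_2. TNFSF18, the ligand of GITR, was at 13.6, 66.4 and 1.82 CPM (2.29 and -2.90, edgeR adjusted p = 3.22e-21 and 1.36e-18). TNFSF9, the ligand of 4-1BB, was at 7.78, 14.6 and 19.8 CPM (0.91 and 1.34), and the death receptor gene FAS at 3.53, 5.05 and 4.55 CPM (0.51 and 0.36), all past the threshold. Among 4 other inhibitory genes, 1 rose, 2 fell and 1 did not pass with siZIP7_1, and 2 rose and 2 fell with siZIP7_2. TGFB1, the immunosuppressive cytokine, was at 218, 131 and 601 CPM (-0.73 and 1.47, edgeR adjusted p = 9.06e-14 and 5.61e-21). CD55, which restrains complement, was at 96.2, 291 and 88.8 CPM (1.59 and -0.12, edgeR adjusted p = 3.57e-21 and 0.0448). SIGLEC15, a sialic acid lectin left out of these counts by the filter rule, had 7, 7 and 4 reads with siNC, 9, 13 and 12 with siZIP7_1, and 140, 130 and 147 with siZIP7_2, and its test is not given.

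**Figure D4:**
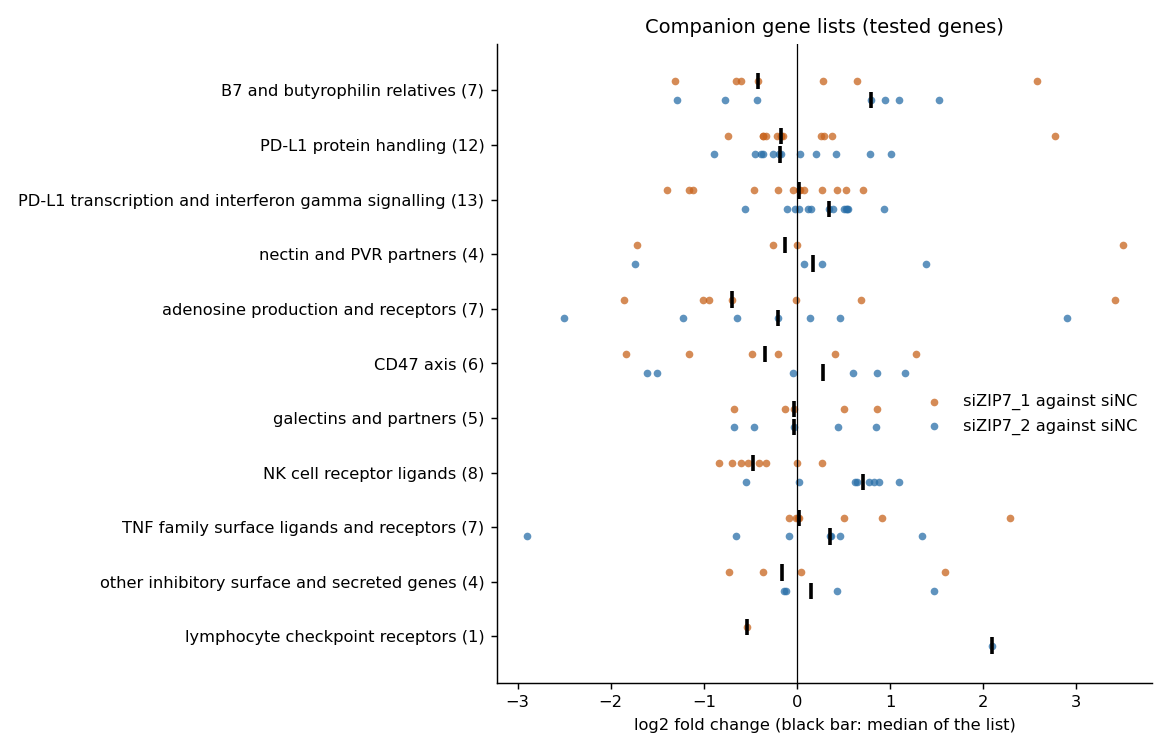
Log2 fold change of the genes in the 11 lists that would reach the low-count filter without any 1 of the groups (number of genes in brackets) with siZIP7_1 (orange) and siZIP7_2 (blue) against siNC, with a black bar at the median of each list. The NK cell ligand medians lie at -0.47 and 0.71, and those of the galectins at -0.04 and -0.03.

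The receptors that lymphocytes carry were mostly near 0. Of 11 checkpoint receptor genes, only PDCD1, LAG3 and CD226 had enough reads to test, and PDCD1 and CD226 reached the filter through siZIP7_2 alone, so their reads are given without a test. PDCD1, the gene of PD-1 itself, had 3, 1 and 2 reads with siNC, 0, 1 and 1 with siZIP7_1, and 22, 21 and 21 with siZIP7_2. LAG3 had 14, 10 and 15 reads with siNC, 6, 14 and 10 with siZIP7_1, and 54, 71 and 50 with siZIP7_2 (log2 fold change 2.10, edgeR adjusted p = 9.74e-09). CD226, the activating receptor of PVR, had 9, 6 and 10 reads with siNC, 6, 5 and 9 with siZIP7_1, and 24, 27 and 23 with siZIP7_2. TIGIT had no more than 1 read in any library.

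Myeloid markers were read as the other source of immune transcripts. CSF1R, with the highest mean CPM of 5 over all libraries, was at 4.15, 0.101 and 8.93 CPM in the siNC, siZIP7_1 and siZIP7_2 groups, and CD14 at 1.81, 0.544 and 10.005 CPM. LYZ was instead highest with siNC, at 1.06, 0.0465 and 0.311 CPM, and ITGAM and CD163 had too few reads to test. The sum of the 5 was 7.95, 6.44 and 6.80 CPM with siNC, 0.692, 0.824 and 0.690 CPM with siZIP7_1, and 22.8, 16.9 and 18.7 CPM with siZIP7_2. The sum, CSF1R and CD14, but not LYZ, thus ran in the same order of groups as PDCD1LG2, and their part in that result was not tested. The 6 markers of the mesenchymal line summed to 10400, 10740 and 10100 CPM with siNC, 7012, 7331 and 6917 CPM with siZIP7_1, and 8786, 8706 and 9077 CPM with siZIP7_2. VIM had the highest mean CPM of the list, and the genes moved in both directions. With siZIP7_1, 1 was higher and 5 lower, beside 34.8% and 35.9% of all genes. With siZIP7_2, 3 were higher and 3 lower, beside 38.5% and 39.3%. CD44 was at 816, 465 and 1793 CPM in the siNC, siZIP7_1 and siZIP7_2 groups (log2 fold changes -0.81 and 1.14), MSN at 1006, 1228 and 2092 CPM (0.29 and 1.06) and EGFR at 671, 565 and 890 CPM (-0.25 and 0.41), all past the threshold. The other markers of the list fell with each siRNA, also past the threshold. VIM had log2 fold changes of -1.04 and -0.93. AXL was at 1911, 1738 and 1005 CPM (-0.14 and -0.93) and CAV1 at 484, 404 and 181 CPM (-0.26 and -1.42). Luminal and epithelial breast markers, of which GATA3 had the highest mean CPM over all libraries (15.8, 8.49 and 12.9 CPM by group), summed to between 22.3 and 26.3 CPM in all libraries, while single genes of the list moved in both directions. CDH1, the gene of E-cadherin, was at 0.466, 4.18 and 0.998 CPM in the siNC, siZIP7_1 and siZIP7_2 groups (log2 fold changes 3.14 and 1.07, edgeR adjusted p = 1.57e-13 and 0.00143). EPCAM was at 6.57, 9.68 and 4.42 CPM (0.56 and -0.57, edgeR adjusted p = 1.51e-05 and 5.56e-05). ESR1 was at 0.0887, 0.241 and 0.501 CPM, with no more than 3 reads in any siNC library.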

How the data were processed

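RNA-seq was analysed for 9 libraries, 3 for each of siNC, siZIP7_1 and siZIP7_2, grouped by their labels. The authors deposited raw counts of single reads per Ensembl gene, without normalization. The submitters' processing notes name Trim Galore 0.4.1, FastQC 0.11.2, STAR, HTSeq 0.6.1 and DESeq2 1.16.1. The genome build and strand setting are not given in the sources used here. Reads outside genes (7.43% to 11.5%) and ambiguous reads (2.67% to 2.91%) were left out. Of 58395 identifiers, 58275 matched GENCODE 29 (GRCh38), which gave symbols, positions and exonic lengths.

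The tests used edgeR 4.0.16 under R 4.3.3 (TMM, its low-count filter, 16761 genes, 1 fit to the 3 groups, quasi-likelihood test, Benjamini-Hochberg adjustment over all genes, threshold 0.05, and glmTreat at 1.8-fold). An SE is the log2 fold change divided by the square root of F. The biological coefficient of variation was 4.5%. Chi-squared per gene was 2.44 to 6.48 for pairs of libraries within a group and 157 to 288 for pairs from different groups. Alternatives were DESeq2 1.42.0, its size factors in edgeR, upper-quartile normalization, other count filters, a replicate block, fits to 2 groups, a 1.5-fold rule and each library left out. The members and the gene lists were chosen with earlier results of these data known. Named genes were all members, SLC39A7, the 3 genes of each list with the largest mean absolute log2 fold change (past the threshold, mean of at least 1 CPM), tested genes within 250 kb of CD274 or CD96, the 3 genes most like CD274, CD47, NT5E and CD96, and the gene of highest mean CPM in each marker list. IRF1, the lymphocyte receptors and the other marker genes given with values were chosen after their values were seen. The result for 1 gene named by this rule is not reported here.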

Additional observations from a re-analysis of the deposited data

Results flagged for a closer look

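PDCD1LG2 was flagged because its effect differed between the siRNAs by a test of the difference itself: the log2 fold change of siZIP7_2 against siZIP7_1 was 2.16 (SE 0.0997, edgeR adjusted p = 7.17e-18), and all 3 siZIP7_1 libraries lay below and all 3 siZIP7_2 libraries above the siNC range. What set the siRNAs apart was not tested.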

How the results depend on the processing

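Outside the fits without a library, 189 member values were recomputed under the alternatives, and 178 kept their direction and their side of the threshold. This tally includes the CD96 values against siNC, which chose that gene and carry no test. For them only the direction was kept, which says nothing about stability. The calls lost were those of CD274 with siZIP7_2, at -0.13 with DESeq2 (adjusted p = 0.118), -0.13 with its size factors (0.0817), -0.05 with upper-quartile normalization (0.457) and -0.08 with a minimum of 10 counts a library (0.232), and of CD96 between the siZIP7 groups without a low-count filter, at 0.24 (0.119). The calls gained were those of NT5E with siZIP7_1 under upper-quartile normalization (0.13, adjusted p = 0.0135), at least 10 counts (0.13, 0.0212) and the 2-group fit (0.11, 0.0454), and of PVR between the siZIP7 groups without the filter (-0.14, 0.0105). NECTIN2 with siZIP7_2 turned to 0.0474 with upper-quartile normalization and to 0.0153 with at least 10 counts. CD276 with siZIP7_1 turned to 0.0219 without siNC replicate 2 (range over the 9 fits -0.0809 to 0.0219), and CD47 to -0.0003 without siZIP7_1 replicate 2 (-0.0003 to 0.103). None of those 3 genes passed in the comparison concerned. The cause was not tested. Upper-quartile normalization moved the median of all genes with siZIP7_2 from -0.0018 to 0.10.

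Members past the threshold numbered 5 to 6 with siZIP7_1, 5 to 6 with siZIP7_2 and 7 to 9 between the siZIP7 groups when each library was left out. Past 1.8-fold the counts were 0 to 1, 1 to 2 and 2 to 2. With a 1.5-fold rule they were 2, 3 and 4. The share of all genes that met that rule is not given here, so nothing is read from these counts. The count past 1.8-fold with siZIP7_2 was 3 with upper-quartile normalization and with a minimum of 10 counts, where NT5E joined. It was 1 without a low-count filter, where PDCD1LG2 had a glmTreat adjusted p of 0.191.

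Replicate numbers showed no clear pairing of the libraries. Deviations from the group means correlated at -0.211 to 0.178 (mean 0.042) over 9 same-numbered pairs, 5 of which were over 0.1. Pairs with different numbers ran from -0.343 to 0.274 (mean -0.0217). These values cannot show whether the libraries were prepared as pairs. With the replicate block the log2 fold changes of PDCD1LG2 were -1.149, 1.017 and 2.17, and the members past the threshold were 5, 6 and 8, as without it.

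At the lowest level, LGALS9 rests on 16 to 45 reads a library, and the receptor genes rest on fewer than 100. No batch is given, and the siRNAs differ in supplier, so supplier, sequence and extent of silencing cannot be told apart.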
